A study of Mus musculus with 28 samples.

Results

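Hedgehog and bone morphogenetic protein (BMP) signalling genes were followed in the gastric corpus of mice carrying a villin-PPARD transgene. The set holds 10 genes, Shh, Ihh, Ptch1, Gli1, Hhip, Bmp2, Bmp4, Sostdc1, Nog and Id1, taken by symbol from a table of read counts for 49492 symbols. The transgene carries PPARD, which encodes the lipid-sensing nuclear receptor PPAR delta, and the villin promoter is best known for driving expression in gut epithelium. Cells had been scraped from the corpus, where the stomach's acid glands lie, and polyadenylated RNA was sequenced in 28 libraries. There were 5 villin-PPARD and 5 WT littermate libraries at 10 weeks of age, 4 villin-PPARD and 4 WT libraries at 25 weeks, and 5 villin-PPARD and 5 WT libraries at 55 weeks. The labels give no sex or strain background, and a scraping can hold stroma beside epithelium.

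Hedgehog ligands are secreted proteins that bind the receptor Patched1 and so release Smoothened, which activates the GLI transcription factors. Ptch1, Gli1 and Hhip are themselves transcribed in responding cells, and in the stomach the ligands come mainly from the epithelium while the response lies mainly in the mesenchyme below it. BMP ligands act through paired receptor kinases and SMAD proteins, induce Id genes, and are held back by secreted antagonists such as noggin and the product of Sostdc1.

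Total counts per library lay between 10982888 and 30891108, and 15812 genes passed a filter on low counts. All 10 genes passed it, but no villin-PPARD library of 55 weeks reached its threshold for Sostdc1 or Nog, which passed through the other groups. Levels are given as CPM, read counts scaled to a common library size with TMM factors. Ppard itself averaged 110 ± 9.56 CPM in villin-PPARD and 74.1 ± 8.18 CPM in WT libraries at 10 weeks (SD, n = 5 each), and the means at the later ages were 90.6 and 93.3 CPM in villin-PPARD libraries, against 73.2 and 79.4 CPM in WT libraries. Atp4a, the catalytic subunit of the parietal cell proton pump, averaged 4874 to 10715 CPM in the WT groups. A defining marker of the corpus was thus abundant in WT libraries. Summed antral markers were 35.2 to 62.5 CPM in villin-PPARD libraries of 55 weeks, against 8.83 to 13.6 CPM in WT libraries. Sums of squamous forestomach markers then had medians of 76.2 CPM in villin-PPARD and 10.7 CPM in WT libraries. Of 3 antral markers 1 was then higher with edgeR, and of 9 tested forestomach markers 4 were higher and 2 lower. At 10 and 25 weeks both sums overlapped between genotypes. The part of other stomach regions in the results was not tested. Mitochondrial transcripts took 1.57% to 6.27% of the counts in villin-PPARD libraries and 4.81% to 20.4% in WT libraries, and the part of this in the results was not tested. Libraries fell into 2 library groups by their column names, the first with 10-week replicates 1 to 3 and 7 of the 8 25-week libraries, the second with 10-week replicates 4 and 5 and the 55-week libraries. WT replicate 3 of 25 weeks is named a replacement and carries no library group, and it was left out of fits within library groups. No library group holds both 25-week and 55-week libraries. WT replicates 2 and 3 of 10 weeks were the most alike pair, with a chi-square per degree of freedom of 3.95, against 13.8 to 150 for other pairs within groups, and they were kept as separate samples. In bulk RNA, fewer cells of a type and less RNA per cell cannot be told apart.

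Within the 10 genes, levels can be compared once divided by transcript length. Per kilobase of exon, the order of the WT means at 10 weeks was Id1 at 184, Shh at 69.6, Ihh at 39.0, Bmp2 at 38.7, Sostdc1 at 3.48, Bmp4 at 2.23, Nog at 2.04, Ptch1 at 1.69, Hhip at 0.441 and Gli1 at 0.366 CPM per kb. Ihh and Bmp2 differed by less than their SDs (4.00 and 8.67 CPM per kb, n = 5), while Bmp4 lay within its SD of 1.07 from both Nog and Ptch1, and Hhip and Gli1 overlapped. The ligands Shh, Ihh and Bmp2 and the target Id1 thus stood well above the receptor, the GLI factor and the antagonists. With the longest transcript in place of all exons, Ihh came to 48.2 and Ptch1 to 2.31 CPM per kb in WT libraries.

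The RefSeq promoter table (GRCm38.p6) held 4 of the 10 genes, Ihh, Ptch1, Hhip and Bmp4. The 250 bases before the start are shown for Ihh, Ptch1 and Hhip, the Hedgehog genes among them, each of which differed between genotypes at 55 weeks. All 3 genes lie on the minus strand, so that the sequences run 5′ to 3′ as transcribed, at chr1:74951673-74951922 for Ihh, chr13:63565736-63565985 for Ptch1 and chr8:80058009-80058258 for Hhip. The RefSeq start of Ptch1 lies inside the span that GENCODE gives the gene.
Ihh: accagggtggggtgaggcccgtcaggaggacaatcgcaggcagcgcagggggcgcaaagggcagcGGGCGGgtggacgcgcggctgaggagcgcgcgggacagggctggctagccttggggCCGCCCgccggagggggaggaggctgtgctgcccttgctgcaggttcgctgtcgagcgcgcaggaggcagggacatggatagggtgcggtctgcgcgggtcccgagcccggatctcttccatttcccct
Ptch1: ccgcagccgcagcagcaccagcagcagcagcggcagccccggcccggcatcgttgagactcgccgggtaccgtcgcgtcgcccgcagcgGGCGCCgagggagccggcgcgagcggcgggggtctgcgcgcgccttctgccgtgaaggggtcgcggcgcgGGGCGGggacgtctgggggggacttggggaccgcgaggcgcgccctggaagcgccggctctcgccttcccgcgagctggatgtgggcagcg
Hhip: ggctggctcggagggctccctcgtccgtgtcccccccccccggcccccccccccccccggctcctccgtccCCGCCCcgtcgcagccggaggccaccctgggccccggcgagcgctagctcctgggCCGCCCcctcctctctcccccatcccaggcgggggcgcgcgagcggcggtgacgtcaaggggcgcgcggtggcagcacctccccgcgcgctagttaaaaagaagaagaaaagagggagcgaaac
Capitals mark the GC box, GGGCGG on either strand, and in Ptch1 also GGCGCC, a string known from BMP-responsive SMAD sites. The Ihh and Hhip windows hold a pair of GC boxes each and the Ptch1 window 1, as does that of Bmp4 (chr14:46390670-46390919), while 32.7% of all 32851 windows hold at least 1. Each search covered the 250 bases before the start only. The GGCGCC of the Ptch1 window occurs in 9.59% of windows. The windows are rich in G and C, with 72%, 78.4% and 76% for Ihh, Ptch1 and Hhip and 63.2% for Bmp4, beside a median of 52.4%. They also hold 24, 41, 28 and 11 CpG in that order, beside a median of 6. The GLI string GACCACCCA, in 0.225% of windows, its shorter form GACCACCC, in 0.703%, and a direct-repeat PPAR response element, in 0.0335%, are not in these 4 windows on either strand, which says only that these letters are absent there.

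More of the 10 genes differed between genotypes at 55 weeks than at 10 weeks, and so did a larger share of all genes. At 10 weeks 5 of the 10 genes had an adjusted p under 0.05 in edgeR's quasi-likelihood test, with adjustment over every gene tested, 3 higher (Ihh, Bmp2, Id1) and 2 lower (Sostdc1, Nog) in villin-PPARD mice, while 34.0% of all genes passed, 17.9% higher and 16.2% lower. At 25 weeks 4 passed, Bmp2 higher and Gli1, Sostdc1 and Nog lower, beside 39.6% of all genes, 21% higher and 18.6% lower. At 55 weeks 7 passed, Ihh and Ptch1 higher and Shh, Gli1, Hhip, Sostdc1 and Nog lower, beside 59.3% of all genes, 31.7% higher and 27.6% lower. The median log2 difference of the 10 genes was -0.23, -0.23 and -0.78 at 10, 25 and 55 weeks, and that of all genes -0.03, -0.01 and 0.03. Libraries of the genotypes did not overlap for 4, 1 and 6 of the 10 genes at the 3 ages, beside 25.6%, 27.3% and 43.3% of all genes. Scaling by library size alone moved the median of all genes to 0.00, 0.15 and 0.43, and the share of calls that were higher from 52.5%, 53% and 53.4% with TMM factors to 61.7%, 74.5% and 78.9%, so the differences given here are relative to the bulk of genes.

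**Figure D1:**
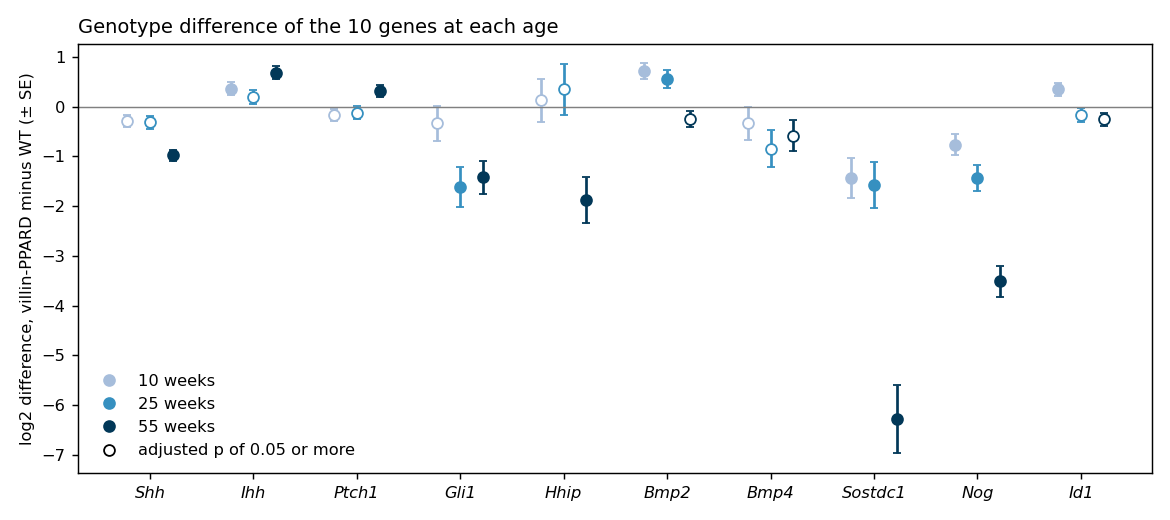
Log2 difference of each of the 10 genes, villin-PPARD minus WT, with its standard error (y axis), at 10, 25 and 55 weeks (light to dark); open points have an adjusted p of 0.05 or more. Sostdc1 reached -6.28 and Nog -3.51 at 55 weeks, while Shh (-0.98) and Ihh (0.68) lay on opposite sides of 0.

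The Hedgehog ligands differed between genotypes in opposite directions. Shh, which in the mouse corpus is made largely by acid-secreting parietal cells, was lower in villin-PPARD than in WT mice at 55 weeks. Ihh, known from surface pit cells, was higher, although within villin-PPARD mice it did not pass between 10 and 55 weeks (-0.12, edgeR adjusted p = 0.450). Shh (chr5:28456815-28467256, minus strand, GRCm38) was at 72.2, 96.4, 107, 71.3 and 66.5 CPM in villin-PPARD libraries of 55 weeks, against 184, 169, 158, 165 and 142 CPM in WT libraries. Every villin-PPARD library of that age lay below every library of the other 5 groups. The log2 difference was -0.98 ± 0.12 (SE; edgeR adjusted p = 2.98e-08), a 1.98-fold lower level. At 10 weeks Shh was at 152, 141, 184, 171 and 166 CPM in villin-PPARD libraries, against 222, 197, 190, 194 and 187 CPM in WT libraries. These did not overlap either, but the difference of -0.28 ± 0.12 missed the threshold (edgeR adjusted p = 0.0624), which it passed with DESeq2 size factors (adjusted p = 0.0498), with limma-voom (adjusted p = 0.0325) and without villin-PPARD replicate 3 (-0.35, adjusted p = 0.0260) or 4 (-0.33, adjusted p = 0.0455). It also passed with the DESeq2 Wald test (adjusted p = 0.0405) and with the 10-week libraries fitted alone (-0.29, adjusted p = 0.0125). At 25 weeks the values were 167, 162, 157 and 126 CPM in villin-PPARD libraries, against 163, 181, 226 and 191 CPM in WT libraries. The groups overlapped, and the difference of -0.31 ± 0.13 also missed the threshold (edgeR adjusted p = 0.0584), passing with DESeq2 size factors (adjusted p = 0.0394) and without villin-PPARD replicate 3 (-0.35, adjusted p = 0.0471) or WT replicate 1 (-0.38, adjusted p = 0.0352). It passed too with the DESeq2 Wald test (-0.33, adjusted p = 0.0312) and with limma-voom (-0.38, adjusted p = 0.0123).

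Shh shares genomic sequence with 2 noncoding genes on the opposite strand, Gm26894 and 9530036O11Rik, and the libraries do not record strand. Gm26894 averaged 11.2 ± 3.06 CPM in villin-PPARD and 39.3 ± 3.98 CPM in WT libraries at 55 weeks (SD, n = 5 each), a log2 difference of -1.82 ± 0.15 (edgeR adjusted p = 9.16e-12). It did not pass at 10 weeks (0.10, adjusted p = 0.628) or 25 weeks (-0.27, adjusted p = 0.187). The second, 9530036O11Rik, differed by -0.40 (adjusted p = 0.133), -1.33 (adjusted p = 5.92e-05) and -1.79 (adjusted p = 1.01e-08) at 10, 25 and 55 weeks. How the reads were divided among these genes was not tested. Most parietal markers were lower in villin-PPARD libraries. Of 16, 13 were lower and 1 higher at 10 weeks, 12 lower and 1 higher at 25 weeks, and 13 lower and 0 higher at 55 weeks. The medians of these markers were -0.68, -0.84 and -2.90. Their summed level ran from 13629 to 16086, from 8139 to 13976 and from 2311 to 3590 CPM in villin-PPARD libraries of 10, 25 and 55 weeks, against 18835 to 21335, 15173 to 21878 and 8902 to 13106 CPM in WT libraries, and no marker was at 0. In WT mice 14 of the 16 were lower at 55 than at 10 weeks (median -0.83). Shh did not pass there with edgeR (-0.28, adjusted p = 0.115) and did with limma-voom (-0.31, adjusted p = 0.0391). The part of parietal markers in the Shh differences was not tested.

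Ihh (chr1:74945315-74951672, minus strand) was at 132, 153, 168, 129 and 119 CPM in villin-PPARD libraries of 55 weeks, against 76.6, 63.6, 96.0, 99.4 and 103 CPM in WT libraries. All villin-PPARD libraries were higher, and the log2 difference was 0.68 ± 0.13 (edgeR adjusted p = 4.34e-05). At 10 weeks the values were 168, 135, 146, 157 and 157 CPM in villin-PPARD libraries, against 110, 133, 126, 103 and 123 CPM in WT libraries. The groups again did not overlap, with 135 CPM the lowest villin-PPARD value and 133 CPM the highest WT value. That difference, 0.36 ± 0.13 (edgeR adjusted p = 0.0293), lost its call without villin-PPARD replicate 1 (0.32, adjusted p = 0.0746), 4 (0.32, adjusted p = 0.0813) or 5 (0.35, adjusted p = 0.0552), and without WT replicate 1 (0.33, adjusted p = 0.0622) or 4 (0.31, adjusted p = 0.0790). It was also lost without replicates 4 and 5 of 10 weeks (0.26, adjusted p = 0.292). Within the first library group it was 0.29 (adjusted p = 0.238) and within the second 0.49 (adjusted p = 0.153). At 25 weeks the values were 118, 119, 136 and 132 CPM in villin-PPARD libraries, against 138, 79.1, 115 and 109 CPM in WT libraries. The ranges overlapped there and the difference of 0.19 ± 0.14 did not pass (adjusted p = 0.297). At 55 weeks Ihh was higher while 7 of 10 pit cell markers were lower and 1 higher, with a median of -1.90. The sum of these markers was then 40156 to 79779 CPM in villin-PPARD libraries, against 162394 to 215485 CPM in WT libraries. At 10 weeks 3 of the 10 were higher and 1 lower (median 0.16), and at 25 weeks 2 were higher and 1 lower (median -0.14). No pit marker was at 0, and their part in the Ihh difference was not tested.

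The ratio of Ihh to Shh per kilobase within each library is given as a description. It comes from the same counts and also rises when Shh alone falls. It averaged 0.881 ± 0.104 in villin-PPARD and 0.563 ± 0.0784 in WT libraries at 10 weeks (SD, n = 5 each), and 0.782 ± 0.146 in villin-PPARD and 0.552 ± 0.166 in WT libraries at 25 weeks (n = 4 each). At 55 weeks it was 1.70, 1.49, 1.46, 1.69 and 1.67 in villin-PPARD libraries, against 0.388, 0.352, 0.570, 0.562 and 0.677 in WT libraries. Ihh was therefore the more abundant of this pair in all 5 villin-PPARD libraries of 55 weeks, and the less abundant in all WT libraries of every age.

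**Figure D2:**
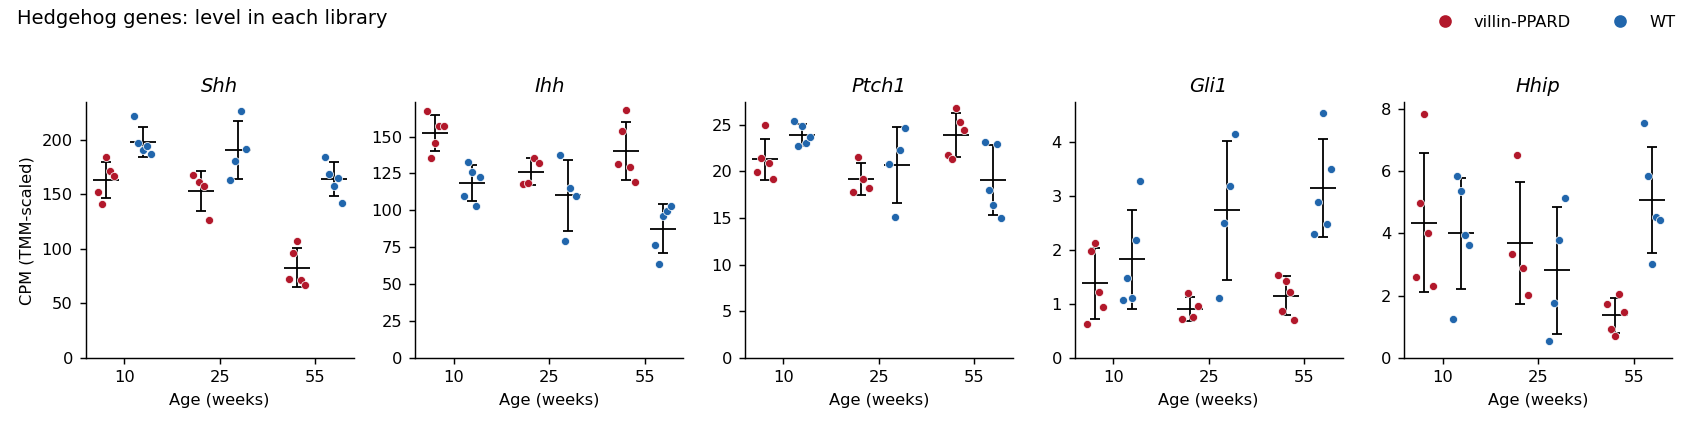
Level of the 5 Hedgehog genes (y axis, CPM after TMM scaling, from 0) in each library by age in weeks (x axis), villin-PPARD in red and WT in blue, with mean and SD. At 55 weeks villin-PPARD libraries lay below WT libraries for Shh, Gli1 and Hhip and above them for Ihh, while for Ptch1 they overlapped.

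Of the 3 response genes, the receptor and the transcription factor moved apart. Ptch1 (chr13:63508328-63573598), which encodes the Hedgehog receptor, was at 21.7, 21.3, 26.8, 25.3 and 24.5 CPM in villin-PPARD libraries of 55 weeks, against 23.1, 18, 16.4, 23 and 15 CPM in WT libraries. The ranges overlapped at 21.3 to 23.1 CPM. The log2 difference of 0.32 ± 0.12 passed (edgeR adjusted p = 0.0201), but not without villin-PPARD replicate 3 (0.27, adjusted p = 0.0644), WT replicate 3 (0.27, adjusted p = 0.0627) or WT replicate 5 (0.24, adjusted p = 0.0820), nor with the 55-week libraries fitted alone (0.29, adjusted p = 0.0560). At 10 and 25 weeks Ptch1 differed by -0.17 (adjusted p = 0.274) and -0.12 (adjusted p = 0.494), with means of 21.3 and 19.2 CPM in villin-PPARD libraries, against 23.9 and 20.7 CPM in WT libraries.

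Gli1 (chr10:127329882-127341974), the GLI factor whose transcription itself follows pathway activity, was scarce. It was at 1.54, 0.864, 1.42, 1.23 and 0.706 CPM in villin-PPARD libraries of 55 weeks, against 2.3, 2.88, 4.54, 2.49 and 3.51 CPM in WT libraries. Every villin-PPARD library was lower, by -1.42 ± 0.33 on the log2 scale (edgeR adjusted p = 0.000551). At 25 weeks it was at 0.717, 1.2, 0.763 and 0.968 CPM in villin-PPARD libraries, against 1.10, 2.50, 3.19 and 4.15 CPM in WT libraries. These groups met only at 1.1 to 1.2 CPM, and the difference was -1.61 ± 0.40 (edgeR adjusted p = 0.00233). At 10 weeks the groups overlapped widely, at 0.630 to 2.14 CPM in villin-PPARD libraries and 1.08 to 3.28 CPM in WT libraries, and the difference of -0.33 ± 0.35 did not pass (adjusted p = 0.486). It turned to 0.40 (adjusted p = 0.517) within the first library group and was -1.30 (adjusted p = 0.110) within the second. Gli1 overlaps the end of Arhgap9 on the opposite strand, which went the other way at 55 weeks (0.70, adjusted p = 0.0406).

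Hhip (chr8:79965851-80058006) encodes a surface protein that binds Hedgehog ligands and limits their action. It was at 1.74, 0.910, 0.693, 2.05 and 1.46 CPM in villin-PPARD libraries of 55 weeks, against 7.56, 5.84, 3.03, 4.53 and 4.43 CPM in WT libraries. No libraries overlapped, and Hhip was 3.68-fold lower (log2 -1.88 ± 0.46, edgeR adjusted p = 0.000924). At 10 and 25 weeks it spread widely in both genotypes, from 2.31 to 7.84 and from 2.01 to 6.50 CPM in villin-PPARD libraries, against 1.26 to 5.83 and 0.550 to 5.12 CPM in WT libraries. Its differences of 0.13 ± 0.43 (adjusted p = 0.843) and 0.35 ± 0.51 (adjusted p = 0.606) turned negative when 1 library was left out, at 10 weeks villin-PPARD replicate 3 (-0.23) or WT replicate 1 (-0.11), and at 25 weeks villin-PPARD replicate 2 (-0.06).

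Stromal markers were counted because the Hedgehog response is known mainly from stroma. Of 13 smooth muscle and pericyte markers, among them Acta2, Myh11 and Des, 7 were lower at 55 weeks (median -1.01), and their summed level was 59.6 to 91.2 CPM in villin-PPARD libraries, against 90.3 to 140 CPM in WT libraries. Of 16 fibroblast markers 4 were lower and 1 higher (median -0.44), with sums of 498 to 910 CPM in villin-PPARD libraries, against 658 to 809 CPM in WT libraries. By library size alone the calls at 55 weeks were 2 higher and 2 lower for smooth muscle and 3 higher and 3 lower for fibroblasts, with medians of -0.58 and -0.04. At 25 weeks, when Gli1 was already lower, 1 fibroblast marker passed (median of the list 0.03). No smooth muscle marker did (2 at an unadjusted p under 0.05, 1 with the DESeq2 Wald test, 2 with limma-voom), with a median of -0.47. Their summed levels then were 44.2 to 83.4 CPM for smooth muscle and 293 to 696 CPM for fibroblasts in villin-PPARD libraries, against 45.4 to 117 and 300 to 794 CPM in WT libraries. Of 12 endothelial markers, 5 were lower and 1 higher at 25 weeks (median -0.61), and 4 lower and 3 higher at 55 weeks (median -0.40). By library size alone these counts were 4 lower and 1 higher, and 0 lower and 4 higher. No marker of these lists was at 0 throughout a group, and their part in the Gli1 and Hhip differences was not tested.

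**Figure D3:**
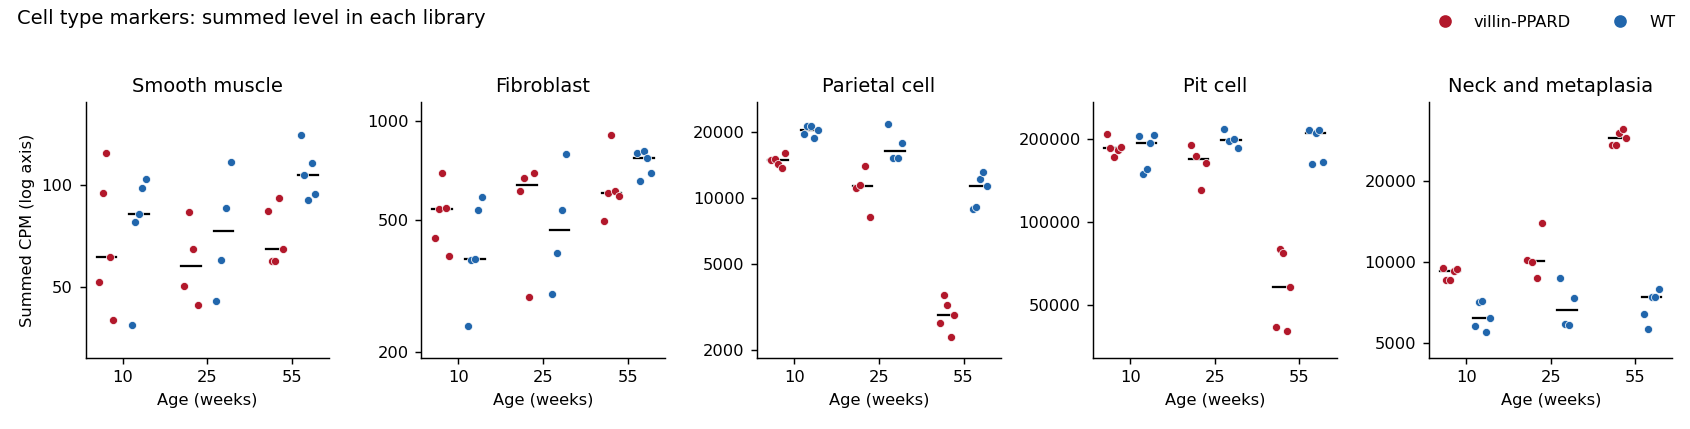
Summed level of cell type markers (y axis, CPM on a log axis) in each library by age in weeks (x axis), villin-PPARD in red and WT in blue, with the median as a bar. At 55 weeks the parietal and pit cell sums lay lower in villin-PPARD libraries, the sum of mucous neck and metaplasia markers lay higher (27241 to 31376 against 5646 to 7953 CPM in WT libraries), and smooth muscle and fibroblast sums touched or overlapped.

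The other Hedgehog genes moved in both directions, by lists that exclude the 10 genes. Of 6 measurable genes for further ligand and for ligand release, 3 were higher and 1 lower at 55 weeks. Dhh, the third Hedgehog ligand, averaged 1.80 ± 0.499 CPM in villin-PPARD and 0.144 ± 0.0660 CPM in WT libraries at that age (SD, n = 5 each; log2 3.69 ± 0.48, edgeR adjusted p = 1.13e-07). Its means in every other group, 0.0913 to 0.477 CPM, lay below the filter threshold of 0.499 CPM. Dhh thus passed the filter mainly through the group where it was high, which limits its calls. Hhat, the acyltransferase that adds palmitate to Hedgehog proteins, was higher (log2 0.81 ± 0.18, adjusted p = 0.000317), and Disp2 of the Dispatched family lower (-0.91 ± 0.20, adjusted p = 0.000212). Dhh was higher and Disp2 lower at 25 weeks too (2 and -0.88, adjusted p = 0.0171 and 0.00205), and at 10 weeks none of the 6 passed with edgeR (1 at an unadjusted p under 0.05, 0 with the DESeq2 Wald test, 1 with limma-voom). Dhh in these villin-PPARD libraries stayed far below Shh and Ihh in CPM.

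The genotype difference of the coreceptor Lrp2 turned round with age, as did that of Gas1, which was near the filter threshold or below it. Gas1 and Lrp2, surface proteins that help present Hedgehog ligand, were lower in villin-PPARD libraries at 10 weeks (-1.62 and -1.17, edgeR adjusted p = 0.0251 and 0.0102) and at 25 weeks (-1.74 and -1.56, adjusted p = 0.0118 and 0.00413). At 55 weeks Gas1 was higher (1.71 ± 0.41, adjusted p = 0.000607), at 0.792 CPM in villin-PPARD and 0.233 CPM in WT libraries on average. The change of its genotype difference between 10 and 55 weeks was 3.33 ± 0.69 (adjusted p = 0.000317), and its levels are low. Outside the villin-PPARD libraries of 55 weeks its group means were 0.0752 to 0.449 CPM, below the filter threshold of 0.499 CPM. Gas1 thus passed the filter mainly through the group where it was high, which limits its calls. In villin-PPARD mice of 10 weeks, 2 libraries held no read of it. Lrp2 was also higher at 55 weeks (1.10 ± 0.39, adjusted p = 0.0159), a change of 2.28 ± 0.52 from 10 weeks (adjusted p = 0.000948). From 10 to 55 weeks Gas1 rose in villin-PPARD libraries, from 0.0752 CPM (3.17, edgeR adjusted p = 1.38e-06). Lrp2 did not pass there, at 1.49 and 1.75 CPM (0.22, adjusted p = 0.639), but fell in WT libraries from 3.38 to 0.818 CPM (-2.06, adjusted p = 0.000957). Boc, a further coreceptor, was higher at 10 and 55 weeks (0.59 and 0.74, adjusted p = 0.0282 and 0.00246). Gpc3, a glypican that competes with Patched1 for ligand in mouse, was 19.9-fold lower at 55 weeks (log2 -4.32 ± 0.36, adjusted p = 2.58e-11). In all, 3 of 6 receptor and coreceptor genes were higher and 1 lower at 55 weeks, against 0 higher and 3 lower at 25 weeks.

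Of 14 genes of Hedgehog transduction inside the cell, 8 were lower and 1 higher at 55 weeks, with a median of -0.65. With scaling by library size alone 3 were lower and 3 higher, with a median of -0.23. Evc2, a ciliary protein that works with Smoothened, fell most firmly (-2.28 ± 0.24, edgeR adjusted p = 2.65e-09), Ulk3, a kinase acting on GLI proteins, was also lower (-0.76 ± 0.13, adjusted p = 7.40e-06), and Sufu, the GLI inhibitor, was higher (0.77 ± 0.11, adjusted p = 3.88e-07). At 25 weeks 5 of the 14 were lower and 1 higher, but 1 lower and 4 higher by library size alone. Among 8 stromal genes known to respond to Hedgehog, 1 was higher and 2 lower at 55 weeks. Fst, follistatin, averaged 22.5 ± 5.72 CPM in villin-PPARD and 3.07 ± 0.295 CPM in WT libraries (log2 2.86 ± 0.31, adjusted p = 1.02e-08), while Sfrp1, a secreted WNT modulator, and Osr1, a transcription factor of foregut mesenchyme, were lower (-1.55 and -2, adjusted p = 5.02e-05 and 0.000647).

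Of the BMP ligands, Bmp2 changed and Bmp4 did not pass the test. Bmp2 (chr2:133552159-133562885, plus strand) was higher in young villin-PPARD mice and then fell with age. At 10 weeks it was at 243, 176, 218, 249 and 236 CPM in villin-PPARD libraries, against 187, 114, 111, 145 and 131 CPM in WT libraries. Only villin-PPARD replicate 2 lay below the highest WT library, and the log2 difference was 0.71 ± 0.16 (edgeR adjusted p = 0.00125), with 0.63 (adjusted p = 0.0364) and 0.82 (adjusted p = 0.0494) within the first and second library groups, and 0.61 (adjusted p = 0.0527) in a fit without replicates 4 and 5 of 10 weeks. At 25 weeks it was at 227, 202, 143 and 202 CPM in villin-PPARD libraries, against 121, 134, 155 and 116 CPM in WT libraries. Again 1 villin-PPARD library overlapped WT, and the difference was 0.56 ± 0.18 (edgeR adjusted p = 0.0148), which missed the threshold without villin-PPARD replicate 1 (0.48, adjusted p = 0.0621) or WT replicate 4 (0.50, adjusted p = 0.0522). At 55 weeks Bmp2 was at 70.6, 123, 108, 81.4 and 98.4 CPM in villin-PPARD libraries, against 156, 103, 100, 120 and 91.4 CPM in WT libraries. The groups overlapped, and the difference of -0.25 ± 0.16 did not pass (adjusted p = 0.189) and turned to 0.14 with library size alone.

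Bmp4 (chr14:46383520-46390669) encodes a BMP ligand made mainly in gut mesenchyme and was scarce. It averaged 3.89 ± 1.99, 3.69 ± 0.927 and 5.44 ± 1.42 CPM in villin-PPARD libraries of 10, 25 and 55 weeks, against 5.02 ± 2.40, 6.50 ± 2.85 and 8.15 ± 1.48 CPM in WT libraries (SD). Its means were lower in villin-PPARD libraries at every age, but the libraries overlapped and no difference passed with edgeR, at -0.33 (adjusted p = 0.466), -0.84 (adjusted p = 0.0698) and -0.58 (adjusted p = 0.108). It passed at 25 weeks with the DESeq2 Wald test (-0.86, adjusted p = 0.0419), with limma-voom (-0.90, adjusted p = 0.0245), with the 25-week libraries fitted alone (-0.91, adjusted p = 0.0458) and without WT replicate 1 (-1.07, adjusted p = 0.0265), and at 55 weeks with limma-voom (-0.67, adjusted p = 0.0218) and with the 55-week libraries fitted alone (-0.62, adjusted p = 0.00727). At 10 weeks its difference was 0.50 (adjusted p = 0.336) within the first library group and -1.43 (adjusted p = 0.0438) within the second.

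Both secreted BMP antagonists among the 10 genes were lower at every age, and hardly detected in old villin-PPARD mice. Sostdc1 (chr12:36314139-36318452, plus strand), also a WNT modulator, was at 1.58, 2.88, 2.94, 1.98 and 2.09 CPM in villin-PPARD libraries of 10 weeks, against 4.07, 6.20, 6.87, 7.61 and 6.22 CPM in WT libraries. No libraries overlapped, and the log2 difference was -1.43 ± 0.40 (edgeR adjusted p = 0.00667). With fewer libraries it kept its size but not its call, at -1.2 (adjusted p = 0.110) and -1.76 (adjusted p = 0.0984) within the first and second library groups. At 25 weeks Sostdc1 was at 1.48, 1.48, 3.68 and 0.298 CPM in villin-PPARD libraries, against 2.26, 4.27, 6.19 and 8.62 CPM in WT libraries. Villin-PPARD replicate 3 lay inside the WT range, and the difference was -1.57 ± 0.46 (edgeR adjusted p = 0.00783), with adjusted p = 0.0509 when the 25-week libraries were fitted alone.

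At 55 weeks the villin-PPARD libraries held 2, 0, 0, 1 and 2 reads of Sostdc1, 5 in all, against 253 in the WT libraries. In the 2 libraries without a read, a count of 0 allows up to 3 reads, or 0.136 and 0.115 CPM, and such limits cover counting error only. WT libraries of that age were at 0.851, 4.36, 3.56, 4.62 and 2.15 CPM. The log2 difference was -6.28 ± 0.69, a fitted 77.8-fold lower level (edgeR adjusted p = 1.23e-08), and stayed between -6.56 and -6.05 when any 1 library was left out. Every villin-PPARD library of 55 weeks lay below every library of the other 5 groups.

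Nog (chr11:89300638-89302332), which encodes noggin, followed the same course with less spread. It was at 1.51, 1.38, 1.87, 1.89 and 3.52 CPM in villin-PPARD libraries of 10 weeks, against 3.16, 3.71, 4.11, 2.92 and 3.36 CPM in WT libraries. Replicate 5 of the villin-PPARD mice lay inside the WT range and the other 4 below it. The log2 difference was -0.76 ± 0.22 (edgeR adjusted p = 0.00839), with -1.19 (adjusted p = 0.00270) within the first library group and -0.21 (adjusted p = 0.733) within the second, which holds replicate 5. At 25 weeks Nog was at 0.812, 1.77, 1.30 and 1.19 CPM in villin-PPARD libraries, against 3.91, 3.65, 2.99 and 3.23 CPM in WT libraries. At 55 weeks it was at 0.171, 0.182, 0.0770, 0.224 and 0.0784 CPM in villin-PPARD libraries, from 21 reads, against 1.45, 1.55, 1.87, 1.67 and 1.97 CPM in WT libraries, from 140 reads. Neither pair overlapped, and the differences were -1.44 ± 0.26 (edgeR adjusted p = 9.44e-05) and -3.51 ± 0.31 (adjusted p = 5.37e-11), the second an 11.4-fold lower level.

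Chief and endocrine cell markers were lower beside both antagonists. Of 8 chief markers 5, 5 and 8 were lower at 10, 25 and 55 weeks, with medians of -0.92, -1.17 and -4.36, and of 11 endocrine markers 5, 5 and 10, with medians of -0.72, -0.93 and -3.41. The remaining endocrine marker, 1 of the 11, was higher at 55 weeks. At 55 weeks the chief sum was 510 to 1526 CPM in villin-PPARD libraries, against 23620 to 87514 CPM in WT libraries, and the endocrine sum 41.6 to 140 CPM in villin-PPARD libraries, against 690 to 1348 CPM in WT libraries. At 10 weeks these sums were 53940 to 72854 and 600 to 913 CPM in villin-PPARD libraries, against 72111 to 146712 and 862 to 1447 CPM in WT libraries. At 25 weeks they were 16748 to 60725 and 385 to 878 CPM in villin-PPARD libraries, against 81577 to 144462 and 912 to 1524 CPM in WT libraries. Of the chief list Lipf had no read in any library of 25 weeks or any WT library of 55 weeks, and no other marker was at 0 throughout a group. Their part in the Sostdc1 and Nog differences was not tested.

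**Figure D4:**
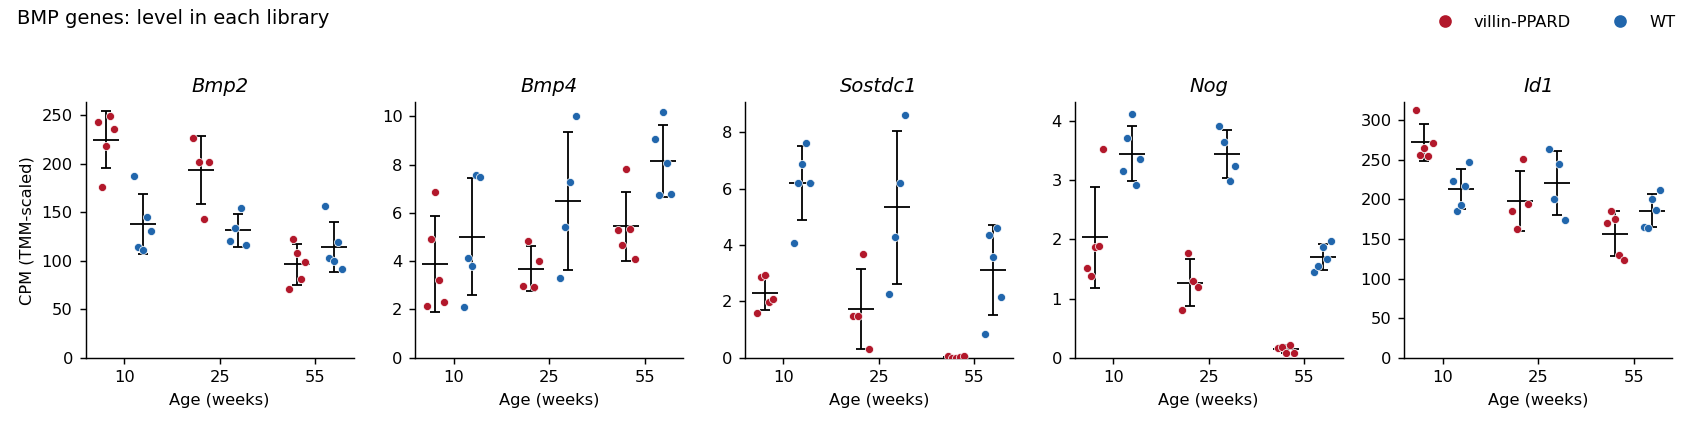
Level of the 5 BMP genes (y axis, CPM after TMM scaling, from 0) in each library by age in weeks (x axis), villin-PPARD in red and WT in blue, with mean and SD. Sostdc1 and Nog are near 0 in villin-PPARD libraries of 55 weeks (means of 0.0293 and 0.146 against 3.11 and 1.70 CPM in WT libraries), and the mean of Bmp2 is above that of WT at 10 and 25 weeks, with 1 villin-PPARD library inside the WT range at each.

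Id1 (chr2:152736251-152737410, plus strand), a direct BMP target that encodes an inhibitor of helix-loop-helix factors, was higher at 10 weeks. It was at 313, 256, 265, 255 and 271 CPM in villin-PPARD libraries, against 223, 186, 192, 217 and 247 CPM in WT libraries. The groups did not overlap, but the log2 difference of 0.35 ± 0.13 (edgeR adjusted p = 0.0360) was close to the threshold. It missed it without villin-PPARD replicate 1 (0.30, adjusted p = 0.106), 3 (0.34, adjusted p = 0.0557), 4 (0.35, adjusted p = 0.0570) or 5 (0.35, adjusted p = 0.0565), and without WT replicate 2 (0.31, adjusted p = 0.0973), 3 (0.32, adjusted p = 0.0894) or 4 (0.36, adjusted p = 0.0526). It was 0.47 (adjusted p = 0.0472) within the first library group and 0.19 (adjusted p = 0.629) within the second, and 0.45 (adjusted p = 0.0655) without replicates 4 and 5 of 10 weeks. At 25 weeks Id1 averaged 198 ± 38.0 CPM in villin-PPARD and 221 ± 40.9 CPM in WT libraries (SD, n = 4 each), and at 55 weeks 157 ± 28.2 and 186 ± 21.1 CPM (n = 5 each). Neither difference passed with edgeR (-0.16, adjusted p = 0.411, and -0.25, adjusted p = 0.101), and the second did with limma-voom (-0.38, adjusted p = 0.00746) and without villin-PPARD replicate 2 (-0.33, adjusted p = 0.0374). Other Id genes were lower at 10 weeks, Id4 (-1.10, edgeR adjusted p = 0.00782) and Id2 (-0.37, adjusted p = 0.0460). Id2 lost its call by library size alone (-0.33, adjusted p = 0.0969).

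Further genes of the BMP pathway moved in both directions in villin-PPARD libraries. Bmpr1b, a type I BMP receptor, averaged 0.561 CPM in villin-PPARD and 11.4 CPM in WT libraries at 55 weeks (log2 -4.29 ± 0.24, edgeR adjusted p = 1.18e-14). Smad9, a receptor-activated SMAD, was 12.6-fold lower (-3.66 ± 0.25, edgeR adjusted p = 2.32e-13). Both were already lower at 10 weeks, at -0.84 (adjusted p = 0.000698) and -0.76 (adjusted p = 0.00304). Hamp2, a hepcidin gene of the mouse whose relative Hamp responds to BMP in liver, differed by -1.34 ± 0.32, -1.96 ± 0.36 and -5.32 ± 0.43 at 10, 25 and 55 weeks (adjusted p = 0.00204, 0.000186 and 9.90e-11). Zfp36l2, which encodes an RNA-binding protein, and Runx2, a transcription factor of bone formation, both on the list of BMP targets, were higher at 55 weeks (1.33 ± 0.12, adjusted p = 1.47e-10, and 1.63 ± 0.24, adjusted p = 1.15e-06). The differences of these 5 genes at 55 weeks kept their sign under each scaling.

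By role, 2 of 6 measurable further BMP and GDF ligands were lower at 55 weeks, Bmp3 (-1.94 ± 0.41, edgeR adjusted p = 0.000176) and Bmp7 (-0.77 ± 0.14, adjusted p = 2.18e-05), and 4 of 11 receptor genes were lower and 1, Acvr1 (0.49, adjusted p = 0.000194), higher. By library size alone 2 of these ligands were lower and 1 higher, and 3 of these receptors lower and 6 higher. Of 10 further antagonists 4 were higher and 2 lower. Crim1, a membrane protein that binds BMPs, was higher at 10, 25 and 55 weeks (0.95, 0.98 and 0.92, adjusted p = 0.000316, 0.000626 and 0.000126), at 96.1 CPM in villin-PPARD and 50.5 CPM in WT libraries of 55 weeks, and Bmper at 55 weeks (1.58 ± 0.44, adjusted p = 0.00266). By library size alone 7 of these 10 antagonists were higher and 1 lower. Of 8 SMADs and their regulators 3 were higher and 1 lower at 55 weeks, and 6 higher and 1 lower by library size alone. Smurf1, a ubiquitin ligase that marks BMP SMADs for degradation, was higher at all 3 ages (0.87, 0.98 and 0.41, adjusted p = 1.99e-05, 1.82e-05 and 0.0116). Of 12 BMP target genes, 3, 6 and 8 were lower and 0, 1 and 2 higher at the 3 ages, with medians of -0.18, -0.55 and -0.57. By library size alone the counts were 2, 3 and 1 lower and 0, 2 and 2 higher, with medians of -0.14, -0.38 and -0.16.

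**Figure D5:**
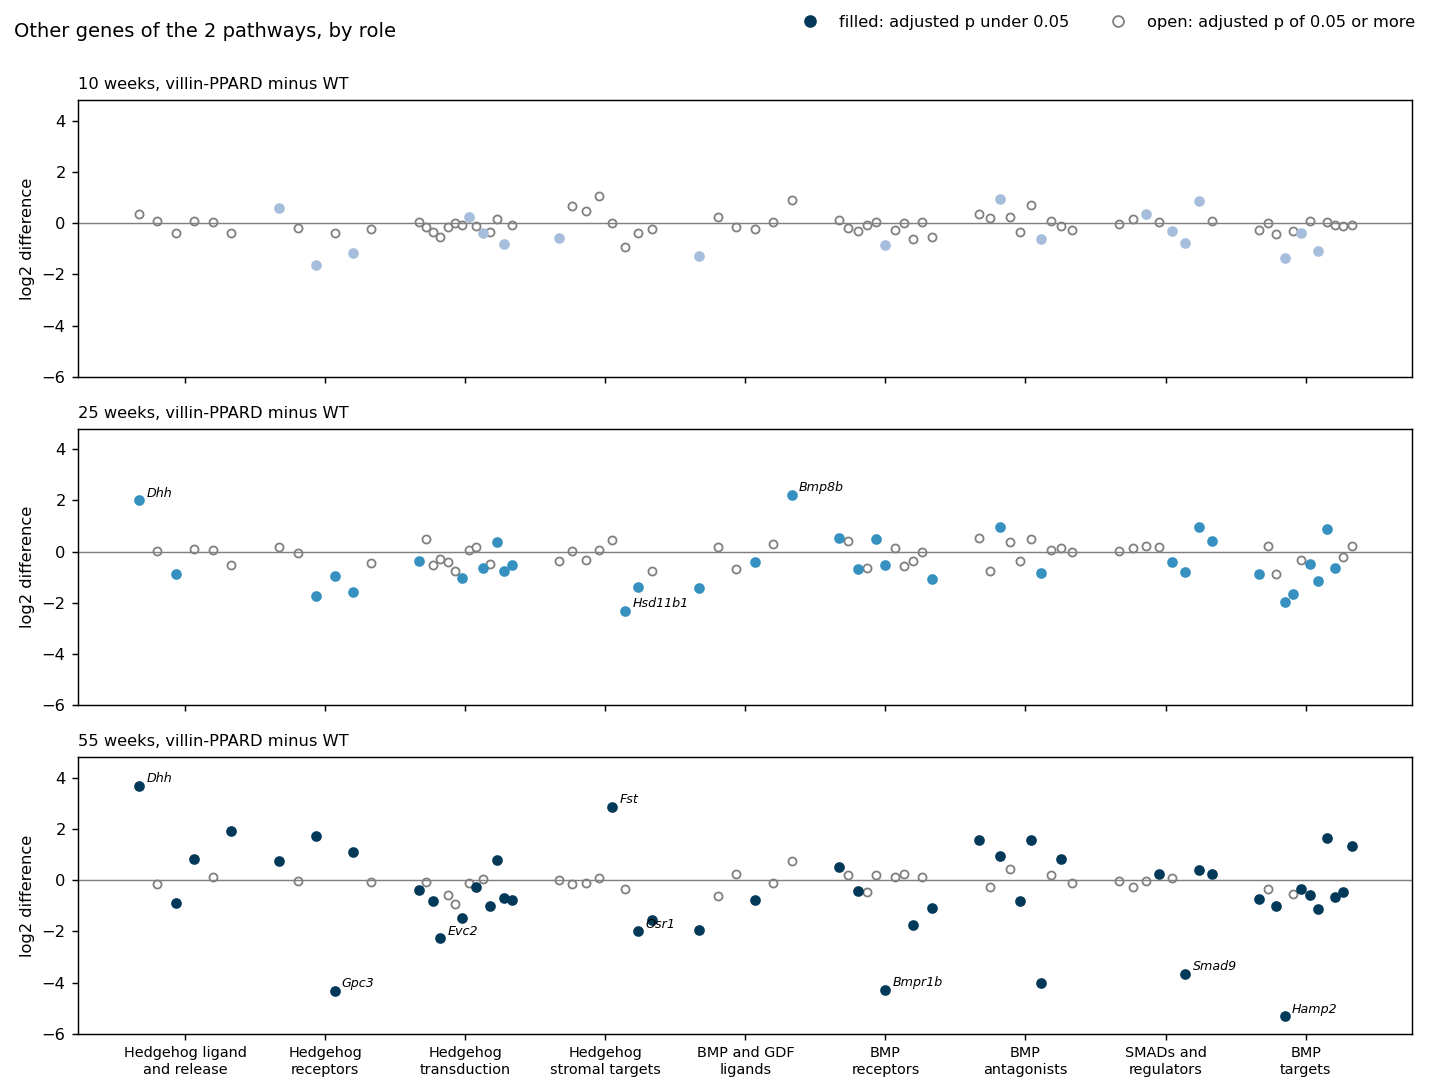
Log2 difference, villin-PPARD minus WT (y axis), of further Hedgehog and BMP pathway genes grouped by role (x axis), at 10, 25 and 55 weeks (top to bottom). Filled points passed at an adjusted p under 0.05 and differences of at least 2 are named outside the antagonists; at 55 weeks Gpc3 (-4.32), Bmpr1b (-4.29), Smad9 (-3.66) and Hamp2 (-5.32) lay far below 0.

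Ageing within each genotype was compared next, and both comparisons with 10 weeks share its libraries. In villin-PPARD mice 6 of the 10 genes were lower at 55 than at 10 weeks and none higher, beside 51.7% of all genes changed in either direction, 24.5% lower. They were Nog (-3.78 ± 0.30, edgeR adjusted p = 8.34e-12), Sostdc1 (-5.86 ± 0.71, adjusted p = 7.32e-08), Bmp2 (-1.22 ± 0.16, adjusted p = 2.40e-07), Shh (-0.98 ± 0.12, adjusted p = 3.94e-08), Id1 (-0.80 ± 0.13, adjusted p = 6.04e-06) and Hhip (-1.65 ± 0.45, adjusted p = 0.00336). By library size alone the count was 6 lower and 2 higher, Ptch1 (0.58, adjusted p = 0.000180) and Bmp4 (0.88, adjusted p = 0.0169). For the 6 lower genes the libraries of 55 and 10 weeks did not overlap and were lower, beside 18.9% of all genes. Within the second library group, which holds 10-week replicates 4 and 5, the 5 other than Hhip kept their calls, with Nog at -4.18, Sostdc1 at -5.68, Bmp2 at -1.34, Shh at -1.03 and Id1 at -0.75, while Hhip came to -1.2 (adjusted p = 0.123). Ihh (-0.12, adjusted p = 0.450), Ptch1 (0.17, adjusted p = 0.237), Gli1 (-0.27, adjusted p = 0.540) and Bmp4 (0.47, adjusted p = 0.232) did not pass, and Bmp4 did without villin-PPARD replicate 3 of 10 weeks (0.79, adjusted p = 0.0457) and within the second library group (0.96, adjusted p = 0.0494).

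In WT mice 2 of the 10 genes were lower at 55 than at 10 weeks, beside 12.7% of all genes changed in either direction, 6.26% lower. Nog fell by 1.02 on the log2 scale (SE 0.23, edgeR adjusted p = 0.00397), with 1.70 ± 0.216 CPM at 55 weeks, against 3.45 ± 0.471 CPM at 10 weeks (SD, n = 5 each). Ihh fell by 0.44 (adjusted p = 0.0238), with 103 CPM both the highest value of 55 weeks and the lowest of 10 weeks, a call lost without WT replicate 2 (-0.40, adjusted p = 0.0625) or 3 (-0.42, adjusted p = 0.0541) of 10 weeks or WT replicate 1 (-0.39, adjusted p = 0.0604) or 2 (-0.34, adjusted p = 0.0900) of 55 weeks. Gli1 and Bmp4 had higher means at 55 weeks (0.81, adjusted p = 0.104, and 0.72, adjusted p = 0.133) and passed with limma-voom (1.04, adjusted p = 0.0130, and 0.86, adjusted p = 0.0239). Gli1 also passed without WT replicate 5 of 10 weeks (1.09, adjusted p = 0.0336), and Ptch1 without WT replicate 1 or 4 of 55 weeks (-0.40 in both, adjusted p = 0.0336 and 0.0320), against -0.32 (adjusted p = 0.0681) with all. Within the second library group neither call was kept, with Nog at -0.88 (adjusted p = 0.122) and Ihh at -0.36 (adjusted p = 0.318). Ihh also lost its call with a library group term (-0.42, adjusted p = 0.117) and by library size alone (-0.38, adjusted p = 0.0687).

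From 10 to 25 weeks little moved. None of the 10 genes passed with edgeR in villin-PPARD mice, beside 2.81% of all genes, although 2, Id1 (-0.46, unadjusted p = 0.00258) and Nog (-0.69, unadjusted p = 0.0111), had an unadjusted p under 0.05, and 1 passed with DESeq2 and 1 with limma-voom. None passed in WT mice, beside 0.0126% of all genes, with 0 at an unadjusted p under 0.05 and 0 with DESeq2 or limma-voom. The genotype difference changed between 10 and 25 weeks in none of the 10 with edgeR, beside 0.00632% of all genes, with 2 at an unadjusted p under 0.05 and 0 with DESeq2 or limma-voom.

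The genotype difference itself changed between 10 and 55 weeks in 7 of the 10 genes, beside 36.4% of all genes, 18.4% up and 18.0% down. It moved down for Sostdc1 (-4.86 ± 0.87, edgeR adjusted p = 7.13e-05), Nog (-2.75 ± 0.38, adjusted p = 1.44e-06), Hhip (-2.01 ± 0.63, adjusted p = 0.0132), Bmp2 (-0.95 ± 0.23, adjusted p = 0.00142), Shh (-0.70 ± 0.17, adjusted p = 0.00126) and Id1 (-0.60 ± 0.18, adjusted p = 0.0105), and up for Ptch1 (0.49 ± 0.17, adjusted p = 0.0206). The changes for Ihh (0.32, adjusted p = 0.179), Gli1 (-1.09, adjusted p = 0.0784) and Bmp4 (-0.26, adjusted p = 0.703) did not pass, that of Gli1 doing so without villin-PPARD replicate 1 (-1.26, adjusted p = 0.0404) or WT replicate 5 (-1.37, adjusted p = 0.0235) of 10 weeks. Within the second library group Sostdc1 (-4.51), Nog (-3.30), Bmp2 (-1.07) and Shh (-0.81) kept their calls, while Ptch1 (0.54, adjusted p = 0.0999), Hhip (-1.62, adjusted p = 0.205) and Id1 (-0.43, adjusted p = 0.243) did not. From 25 to 55 weeks the difference moved down in 5 of the 10, beside 28.9% of all genes (14.6% down), namely Sostdc1 (-4.71, adjusted p = 0.000294), Hhip (-2.23, adjusted p = 0.0149), Nog (-2.08, adjusted p = 0.000299), Bmp2 (-0.81, adjusted p = 0.0123) and Shh (-0.67, adjusted p = 0.00457). Hhip lost that call without villin-PPARD replicate 2 of 25 weeks (-1.80, adjusted p = 0.0556), and the change between these ages lies across library groups. Ihh (0.49, adjusted p = 0.0564) and Ptch1 (0.44, adjusted p = 0.0610) missed the threshold and each passed when any of 5 single libraries was left out, at 0.53 to 0.61 and 0.49 to 0.55.

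Genes most alike in profile over the 28 libraries were found by Pearson correlation of log2 CPM, as a description in which the libraries, their scaling and their genotype and age are shared. For Sostdc1 they were Aldh1l2 (r = 0.987), Slc38a5 (0.981) and Gabra4 (0.975), and for Nog they were Frem2 (0.977), Aplp1 (0.972) and Slc38a3 (0.970). Bmp2 was closest to Slc6a20a (0.971), Mcmbp (0.966) and Irs2 (0.956), and Shh to Nceh1 (0.964), Ptger3 (0.952) and Abhd3 (0.951). Bmp4 was closest to Fbln5 (0.933), Gpx3 (0.924) and Tgfb1i1 (0.913), and Gli1 to Cygb (0.907), Barx1 (0.905) and Arhgef25 (0.897). The closest genes to Id1, Ihh, Hhip and Ptch1 were Mlf2 (0.893), Ints1 (0.877), Kdr (0.851) and Fut11 (0.850).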

How the data were processed

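Counts of reads per gene in 28 libraries were deposited by the authors as 1 table, unnormalized. Per the submitters' processing notes they used TopHat2 2.0.14, HTSeq 0.6.1, mm10 and DESeq2, whose roles and order the notes do not give. Per the labels' protocols the kit keeps no strand. Which gene annotation HTSeq read, and with which strand option, was not given in the sources used here. Every column was matched to a sample by its title, and groups came from the labels. Totals ran from 10982888 to 30891108 counts per library.

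Genes were kept by filterByExpr of edgeR 4.0.16 (minimum count 10, a threshold of 0.499 CPM), scaled by TMM and fitted with its robust quasi-likelihood model over all 28 libraries, with 1 mean per genotype and age. Tests were two-sided and p-values, were adjusted by Benjamini and Hochberg over 15812 genes. Error terms after ± are SE for log2 differences and SD for levels. Alternatives used DESeq2 1.42.0, limma 3.58.1 and other settings, run in R 4.3.3, and the fits were tested on simulated data. Figures were drawn in Python 3.11.15. The labels do not say how mice were assigned to libraries, so p-values judge differences against the spread between these samples only.

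The 10 genes, the pathway and marker lists and the settings were chosen with earlier results of these data known. Of each pathway list, genes were named if among the 3 lowest adjusted p in a comparison. Fits within library groups were added after seeing the data. Same-numbered replicates did not deviate together: of 14 pairs, correlations ran from -0.42 to 0.23 and 3 exceeded 0.1. Positions are from GENCODE M21 (GRCm38) and promoter sequences from RefSeq. Some results are not reported here.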

Additional observations from a re-analysis of the deposited data

Results flagged for a closer look

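A single library stood apart from its group for 2 genes. Id1 was at 313 CPM in villin-PPARD replicate 1 of 10 weeks, where the other 4 libraries were at 255 to 271 CPM. Nog was at 3.52 CPM in villin-PPARD replicate 5 of 10 weeks, where the other 4 were at 1.38 to 1.89 CPM. These are 2 of 60 groups examined, and chance sets a library apart in about 1 in 20.

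The genotype difference of 7 genes was not the same at 55 as at 10 weeks, by edgeR's interaction test. The change was -4.86 for Sostdc1, -2.75 for Nog, -2.01 for Hhip, -0.95 for Bmp2, -0.70 for Shh, -0.60 for Id1 and 0.49 for Ptch1, on the log2 scale. Against 25 weeks it was -4.71 for Sostdc1, -2.23 for Hhip, -2.08 for Nog, -0.81 for Bmp2 and -0.67 for Shh, and there the ages lie in different library groups.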

How the results depend on the processing

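The number of the 10 genes called by genotype at 10 weeks, 5, was 1 without 10-week replicates 4 and 5, 3 within the first library group and 2 within the second, and 3 to 5 with 1 library left out (3 without villin-PPARD replicate 1 or 5 or WT replicate 4). The counts at 25 and 55 weeks, 4 and 7, ran from 3 to 6 and from 6 to 8 with 1 library left out. For WT mice at 55 against 10 weeks the count of 2 was 1 with library size alone, 7 with limma-voom, 1 with a library group term, 4 without 10-week replicates 4 and 5, 0 within the second library group and 1 to 3 with 1 library left out (1 without replicate 2 or 3 of 10 weeks or replicate 2 of 55 weeks). For villin-PPARD mice at 25 against 10 weeks the count of 0 was 1 with DESeq2, 1 with limma-voom and 0 to 1 with 1 library left out (1 without replicate 3 of 25 weeks). The count of 7 changed genotype differences from 10 to 55 weeks was 4 within the second library group. Smaller samples enter the fits within library groups; the cause of the other changes was not tested.

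Directions that reversed belonged to differences that had not passed. With library size alone they were, in log2, Ptch1 0.04 and Id1 0.01 at 25 weeks, Bmp2 0.14 and Id1 0.15 at 55 weeks, Ihh 0.29 and Gli1 0.15 for villin-PPARD mice at 55 against 10 weeks, Bmp4 0.09 for the change from 10 to 55 weeks and Id1 0.14 for that from 25 to 55 weeks. At 10 weeks Hhip came to -0.09 with limma-voom and -0.25 within the second library group, Gli1 to 0.37 and Bmp4 to 0.47 without replicates 4 and 5, and to 0.40 and 0.50 within the first library group. Within the second, Gli1 came to 0.08 for villin-PPARD mice at 55 against 10 weeks and Bmp4 to 0.85 for the change from 10 to 55 weeks. With 1 library left out, Hhip ran from -0.23 to 0.31 at 10 weeks and from -0.06 to 0.81 at 25 weeks, the change of Bmp4 from -0.47 to 0.07 (10 to 55 weeks) and from -0.03 to 0.48 (25 to 55 weeks), that of Gli1 from -0.10 to 0.45 and that of Id1 from -0.19 to 0.05 (both 25 to 55 weeks).

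With the replicate number as a block the counts by genotype stayed at 5, 4 and 7, and the count for WT mice at 55 against 10 weeks was 3, the numbers giving no sign of pairing. Library size alone also took away the calls of Shh (-0.35, adjusted p = 0.0724) and Id1 (-0.24, adjusted p = 0.310) for the change from 10 to 55 weeks and gave one to Ihh (0.67, adjusted p = 0.00537). Depth limits Sostdc1, Nog, Gli1, Hhip and Bmp4, which had few reads.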
